A study of Mus musculus with 4 samples.

Results

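Cancer-associated fibroblasts (CAFs), the fibroblasts of the tumour stroma, were sorted singly from 4 colon tumours, and the wells in which genes of cell division were found are described here. The wells were chosen by transcripts found in them: 75 of 740 kept wells held at least 1 transcript of 2 or more of 12 proliferation genes: Mki67, Top2a, Cdk1, Ccnb1, Ccnb2, Birc5, Cenpf, Tpx2, Ube2c, Nusap1, Rrm2 and Tk1. They numbered 2, 39, 12 and 22 in tumours 1, 2, 3 and 4. The tumours are orthotopic APTKA tumours, transplanted into the colon of female mice of the C57BL6J strain. They were not treated and form 1 group, so all comparisons are between wells of the same tumours. The labels do not spell out the alleles behind the name APTKA, the mice per tumour, their age or the gate of the sort, and nothing says that the 4 tumours were separate mice. Each plate was made by SORT-seq, in which 1 cell is sorted per well and each mRNA molecule is counted once through a molecular tag (UMI).

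Plate totals were 612734 to 3165550 transcripts, and 43, 250, 243 and 204 wells of tumours 1 to 4 had at least 1000 transcripts and at most 30% mitochondrial ones. Tumour 1 stood apart: it came from another sequencing run than the other 3, and 5 of the 12 proliferation genes had a row in its table. It entered no test, and all tests below rest on tumours 2, 3 and 4.

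A dividing cell copies its DNA in S phase and separates the copies in mitosis. Rrm2, a subunit of ribonucleotide reductase, and Tk1, thymidine kinase, make building blocks of DNA. The other 10 genes act mainly from late S phase to the end of mitosis: Cdk1 with the cyclins Ccnb1 and Ccnb2 starts mitosis, Top2a untangles DNA, Cenpf, Birc5, Tpx2 and Nusap1 serve kinetochores and the spindle, Ube2c marks cyclins for destruction, and Mki67 coats mitotic chromosomes. Most fibroblasts of adult tissue are resting, and mural cells of vessels (pericytes and smooth muscle) can divide when vessels grow.

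These 75 wells were not alike. Exactly 2 of the 12 genes were found in 44 wells, exactly 3 in 11, 4 to 8 in 10, and 10 to 12 in 10; 5 wells held all 12. A further 147 wells held 1 gene and 518 held none. The 20 wells with 4 or more genes (9, 2 and 9 in tumours 2, 3 and 4) carried 88.5% of the 1300 transcripts of the 12 genes found in the 75 wells. Just inside the threshold the wells with exactly 2 genes had a median of 2 such transcripts, just outside it the wells with 1 gene had a median of 1. The boundary of 4 genes was set after these values were seen, so what follows about the 20 wells is a description with no test.

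Genes that the choice of wells did not use were low in most wells with 2 genes. The summed level of 45 other mitosis genes had a median of 31.7 transcripts per 10000 in the 20 wells, of 3.11 in wells with 3 genes and of 1.81 in wells with 2. The median was 1.87 in wells with 1 gene and 1.40 in wells with none. Of the 20 wells, 17 (85%) lay above the 95th percentile of the wells with none in their own tumour, against 4 of 11 (36.4%), 6 of 44 (13.6%) and 4 of 147 (2.72%) of wells with 3, 2 and 1 genes. For 46 genes of DNA replication, 13 of the 20 wells (65%) lay above that percentile, against 1 of 11 (9.09%), 0 of 44 (which allows a share of up to 6.82%) and 6 of 147 (4.08%). The wells are therefore called proliferation-gene wells after the rule that chose them. None of the 75 wells held only Rrm2 and Tk1, the only pair by which a well without a mitotic gene could meet the rule. At least 1 of these 2 genes was found with a mitotic gene in 37 wells (18 of the 20 wells), and 38 held mitotic genes alone (2 of the 20).

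**Figure D1:**
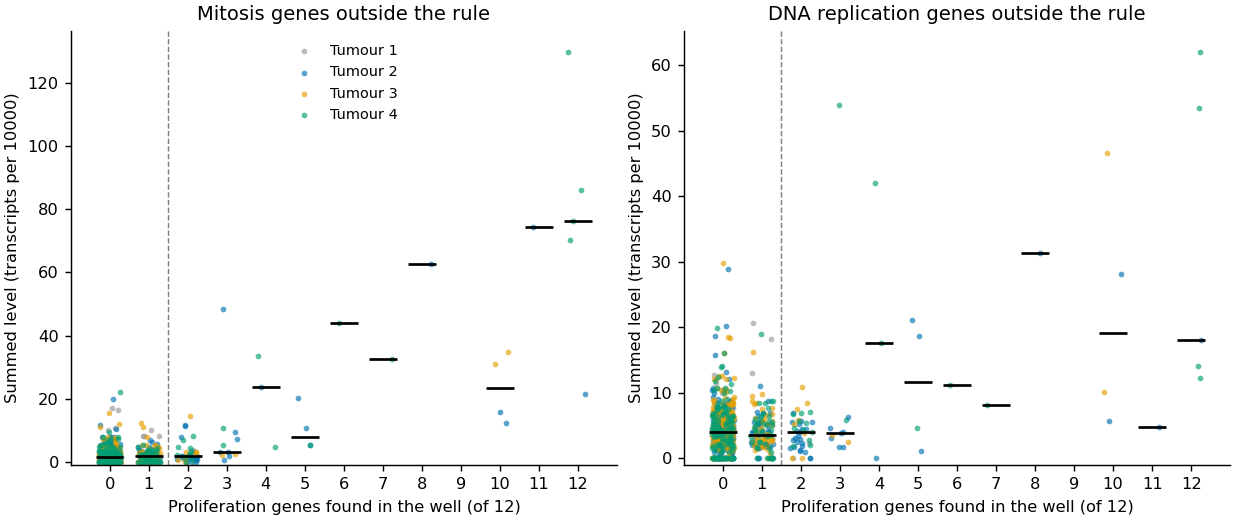
Summed level of mitosis genes (left) and DNA replication genes (right) outside the 12 proliferation genes, in transcripts per 10000, for each of 740 wells by the number of the 12 genes found in it; points are wells coloured by tumour, spread sideways for legibility, black lines are medians and the dashed line is the threshold of 2 genes. Apart from 1 well with 3 genes in each panel, wells with 2 or 3 genes lie among those with 0 or 1, and the 20 wells with 4 or more reach 130.03 for mitosis genes and 62.1 for replication genes.

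Single members of the 12 were spread in the same way. Top2a was found in 13 of the 20 wells, in 5 of the 55 with 2 or 3 genes and in 3 of the 665 other kept wells, and the 20 wells held 97.4% of its transcripts in the 75. Mki67 was found in 15 of the 20, 13 of the 55 and 35 of the 665 wells, so a single Mki67 transcript was common outside. Rrm2 was found in 17 of the 20 wells, 9 of the 55 and 11 of the 665. The highest counts in 1 well were 45.2 transcripts of Top2a, 35.1 of Ube2c, 25.1 of Mki67 and 24.1 of Cdk1, while Nusap1 did not exceed 7.01.

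Many genes of late cell cycle share 2 promoter motifs, known from human and mouse cells: the CHR (cell cycle genes homology region), TTTGAA, which the MuvB complex binds, and the CCAAT box, CCAAT, which NF-Y binds. In the 300-base promoter windows of RefSeq (GRCm38.p6), 11 of the 12 genes had an entry, and 6 of these held the CHR letters, 8 held CCAAT and 6 held both, with both strands searched and overlaps counted. Of all 32851 windows, 17.9%, 37.4% and 6.95% did. Cdk1, Top2a and Mki67 are shown because their products mark dividing cells and each holds both motifs. The 150 bases before the start are printed on the gene's strand, 5′ to 3′, with matches to either motif or its reverse complement in capitals; position -1 is the last base printed.
Cdk1, chr10:69352913-69353062, minus strand: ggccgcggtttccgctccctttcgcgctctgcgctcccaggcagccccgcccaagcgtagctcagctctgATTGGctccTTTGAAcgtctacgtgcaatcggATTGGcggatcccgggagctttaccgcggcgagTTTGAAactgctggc
Top2a, chr11:99024190-99024339, minus strand: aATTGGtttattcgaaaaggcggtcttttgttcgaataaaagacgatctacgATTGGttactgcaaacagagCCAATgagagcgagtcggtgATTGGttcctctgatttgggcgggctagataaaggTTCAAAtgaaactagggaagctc
Mki67, chr7:135716380-135716529, minus strand: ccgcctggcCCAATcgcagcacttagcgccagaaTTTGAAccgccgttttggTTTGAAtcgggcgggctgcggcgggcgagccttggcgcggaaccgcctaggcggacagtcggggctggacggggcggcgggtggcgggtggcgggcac
The CHR match nearest the start began at position -15 in Cdk1, -23 in Top2a and -98 in Mki67, and the nearest CCAAT match at -48, -58 and -141. A match is a run of letters and not a measured binding site. In the GENCODE annotation of GRCm38 (mm10), the gene bodies lie at chr10:69335146-69352938, chr11:98992943-99024189 and chr7:135689784-135716361, all protein coding and on the minus strand.

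How many wells were counted depended on depth. The share of proliferation-gene wells was 4.65% (2 of 43; exact 95% binomial interval 0.568 to 15.8%) in tumour 1, 15.6% (39 of 250; 11.3 to 20.7%) in tumour 2, 4.94% (12 of 243; 2.58 to 8.47%) in tumour 3 and 10.8% (22 of 204; 6.88 to 15.9%) in tumour 4, a mean of 8.99 ± 5.23% (SD, n = 4 tumours). With the wells of each tumour split into 3 equal groups by depth, it averaged 2.01% in the shallowest, 7.11% in the middle and 17.8% in the deepest group. Median depth was 9301, 20120, 24502 and 23273 transcripts in the proliferation-gene wells of tumours 1 to 4, against 5552, 7259, 7562 and 8666.5 in the other wells. With every well thinned to 3000 UMIs and 143 shallower wells left out, 19 of 597 wells remained (0, 9, 2 and 8), a mean of 2.56 ± 2.41%. At full depth the share of wells with 4 or more genes was 2.21 ± 2.13%. The intervals cover counting error only.

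Over 1% of transcripts came from red cell genes in 41 wells, which are shallower than the others and may also hold stromal RNA. At least 1 of the 12 genes was found in 30.04% (exact interval 26.7 to 33.6%) of the 699 other wells (median 9175 transcripts), against 29.3% (12 wells; 16.1 to 45.5%) of the 41 (median 2403), and at least 2 in 10.2% (8.02 to 12.6%), against 9.76% (4 wells; 2.72 to 23.1%). None of the 41 wells held 4 or more, which allows a share of up to 7.32%. Wells left out for fewer than 1000 transcripts held 2 or more of the genes in 2 of 683 cases.

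To ask what else differed at equal depth, each proliferation-gene well was paired with 1 other well of its tumour with nearly the same total (log2 totals within 0.5). This gave 31, 12 and 22 pairs in tumours 2, 3 and 4, with 18 of the 20 wells among them; 8 wells of tumour 2, with 41648 to 83992 transcripts, found no partner. Transcripts were summed per tumour and side and compared by edgeR's quasi-likelihood test with the tumour as a block, which leaves 2 residual degrees of freedom. Of 5871 genes tested, other than the 12, 28 rose in proliferation-gene wells (0.477%) and 10 fell (0.17%) at an adjusted p under 0.05 (Benjamini-Hochberg), with a median log2 difference over all genes of 0.00. In all 28, and in 9 of the 10, the values of the 3 tumours did not overlap between the sides; this held for 8.4% of all tested genes in the higher and 2.84% in the lower direction. Levels below are transcripts per 10000 in the summed wells of tumours 2, 3 and 4, and each log2 difference is proliferation-gene wells minus matched wells, with its SE. A bulk level of this kind cannot tell fewer expressing cells from less RNA per cell.

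Of the 28 genes that rose, 12 were mitosis genes outside the rule. Their summed level was 10.4, 13.6 and 27.04 in proliferation-gene wells, against 1.57, 2.04 and 1.51 in matched wells. Of 45 genes, 16 passed the filter on low counts and 12 of them rose, but most passed through the proliferation-gene side alone, so this count is no support. Plk1, the kinase that drives entry into and exit from mitosis, had 0.324, 0.396 and 0.910, against 0, 0 and 0 in matched wells, which makes it at least 24.2-fold higher (floor of 3 counts over the group). All 3 tumours had Plk1 on the proliferation-gene side and none on the other. Cenpe, a kinetochore motor, was at 0.227, 0.264 and 0.662, against 0, 0 and 0 in matched wells, at least 17.2-fold higher. Ccna2, the cyclin of S phase and early mitosis, had 0.664, 0.561 and 1.39, against 0.0175, 0 and 0.0415, a ratio of summed counts of 39.8 (95% counting interval 13.3 to 195). Cenpa, the centromeric histone, had 105 counts in proliferation-gene wells against 1 in matched wells, a ratio of 100.2 (17.6 to 3994). Racgap1, Anln and Prc1, which build the midzone and the cleavage furrow, had 88, 87 and 108 counts, against 2, 2 and 4. Of the transcripts of these 7 genes, 89.5 to 98.1% on the proliferation-gene side came from the wells with 4 or more genes.

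DNA replication genes were higher in sum but were seldom called singly. Their summed level was 8.78, 15.1 and 15.8 in proliferation-gene wells, against 3.28, 5.16 and 3.82 in matched wells, with no overlap. Of 15 tested genes 1 rose: Rrm1, the large subunit of ribonucleotide reductase, with 0.567, 0.956 and 1.39, against 0.0873, 0.105 and 0.104 (log2 difference 3.09 ± 0.37, adjusted p = 0.00609). All 15 had a positive difference, with a median of 1.13. Of 46 genes these 15 passed the filter on low counts, which a gene high on 1 side passes more easily. As for the mitosis genes, this count is therefore no support. 2810417H13Rik, which RefSeq names Pclaf, a factor bound to the replication clamp PCNA, had 0.567, 1.19 and 1.01, against 0.122, 0 and 0.0208 (3.68 ± 0.62, adjusted p = 0.0308). The condensin subunit Ncapg2, singled out after its values were seen, rose too, at 0.227, 0.396 and 0.435 against 0.0349, 0 and 0.0208.

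Chromatin and tubulin genes of dividing cells held 3 of 20 tested genes that rose: the histone variant H2afz, the tubulin regulator Stmn1 and the nuclear lamina protein Tmpo. H2afz was found in 56 of 65 proliferation-gene wells and 47 of 65 matched wells. Its level was 2.96, 3.53 and 5.90, against 0.769, 0.913 and 1.22 (1.94 ± 0.23, adjusted p = 0.00609). Stmn1 had 1.41, 0.297 and 3.02, against 0.262, 0.0702 and 0.0208 (3.45 ± 0.63, adjusted p = 0.0459), lowest in tumour 3 on the proliferation-gene side. Among 11 tested cyclins, kinases, E2F factors and their inhibitors, none was called at this threshold, and the median log2 difference was -0.26. The 2 of highest level were the antiproliferative genes Btg2, at 5.02 ± 0.94 against 5.48 ± 0.45, and Gas1, at 3.36 ± 1.19 against 3.73 ± 1.09 (SD, n = 3 tumours each).

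Genes known from vascular mural cells were among the 12 that rose outside the cell cycle lists. Most of the 12, among them Rgs5, Notch3, Fabp4 and Apold1, passed the filter on low counts through the proliferation-gene side alone. Their being called is therefore by itself no support. Rgs5, a G-protein regulator by which pericytes are recognised, had 0.518, 1.52 and 1.18 in proliferation-gene wells, against 0.0873, 0.0702 and 0.0415 in matched wells (3.65 ± 0.45, adjusted p = 0.00801). Notch3, the Notch receptor of mural cells, had 1.02, 1.19 and 0.972, against 0.157, 0.176 and 0.145 (2.58 ± 0.31, adjusted p = 0.00609). Its level was nearly equal over the 3 tumours on each side, but few wells carried it. Notch3 was found in 16 proliferation-gene wells against 10 matched wells, and Rgs5 in 11 against 6. On the proliferation-gene side of tumour 3, 1 well held all transcripts of both, 46.3 of Rgs5 and 36.2 of Notch3. Ndufa4l2, a mitochondrial protein that is abundant in pericytes, had 0.842, 0.858 and 0.662, against 0.122, 0.281 and 0.0830 (2.29 ± 0.37, adjusted p = 0.0255). Des and Nes, the intermediate filaments desmin and nestin, rose by 1.67 ± 0.30 (adjusted p = 0.0443) and 2.02 ± 0.36 (adjusted p = 0.0397); for Des the difference was -0.29 against partners that held none of the 12 genes. The pericyte marker list summed to 5.05, 10.4 and 5.65, against 2.38, 2.60 and 2.24, with 7 of 7 markers above 0 in each tumour on the proliferation-gene side and 6 of 7 on the other. Most of the 10.4 in tumour 3 came from the well that held its Rgs5. Other mural genes were not called: the pericyte channel genes Kcnj8 and Abcc9 had differences of -0.54 and 0.36 (adjusted p = 0.741 and 0.818), and the smooth muscle genes Myh11 and Synm of -0.22 and -1.40 (adjusted p = 0.962 and 0.242). The pericyte marker Cspg4 missed the threshold, at 1.44, 4.16 and 1.03 against 0.681, 0.737 and 0.311 (1.62 ± 0.31, adjusted p = 0.0595). The smooth muscle genes Actg2 and Smtn had differences of 1.41 and 0.42 (adjusted p = 0.328 and 0.691). Too low to be tested, Higd1b, Cnn1 and Hhip had 15, 33 and 1 counts, against 0, 11 and 14. The 7 smooth muscle markers summed to 4.78, 4.09 and 2.96, against 1.99, 5.16 and 1.72, and overlapped.

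Fabp4, a fatty acid carrier of adipocytes and capillary endothelium, and Apold1, a protein of endothelial cells, rose with them. Fabp4 had 0.729, 1.32 and 2.17, against 0.0524, 0.0351 and 0.0623 (4.50 ± 0.40, adjusted p = 0.00380). It was found in 9 of 65 wells against 6 of 65, and 53.1% of its transcripts on the proliferation-gene side were in 1 well. In tumour 3 its whole level on that side came from 1 well with 40.2 transcripts. Apold1 had 0.308, 3.30 and 1.06, against 0.0873, 0.105 and 0.0208 (3.89 ± 0.56, adjusted p = 0.0174), with 57.03% in 1 well of tumour 3. The 8 endothelial markers (Pecam1, Cdh5, Kdr, Emcn, Esam, Flt1, Tie1 and Egfl7) summed to 0.259, 0.825 and 0.703, against 0.122, 0.105 and 0.145, and 3, 4 and 6 of them were above 0, against 4, 2 and 2. Their part in the result was not tested.

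Spp1, the secreted matrix protein osteopontin, had 11.5, 16.4 and 6.70 in proliferation-gene wells, against 1.47, 0.0351 and 0.0415 in matched wells (5.04 ± 0.79, adjusted p = 0.0229). It was found in 21 of 65 wells against 14 of 65, and 1 well held 32.4% of the transcripts. That well, with 498.0 transcripts, held the whole proliferation-gene level of tumour 3. The higher level came from few wells: 30 or more Spp1 transcripts were counted in 3 of the 18 wells with 4 or more genes, in 4 of the 47 with 2 or 3, and in none of the 65 partners. Bnip3, a mitophagy gene induced by low oxygen, had 0.891, 0.594 and 0.579, against 0.210, 0.105 and 0.187 (1.86 ± 0.34, adjusted p = 0.0448). Of its transcripts 19.8% were in the 18 wells, so, unlike the mitosis genes, it was carried mainly by wells with 2 or 3 genes. It was the 1 gene of 18 tested glycolysis and hypoxia genes that rose, and the list's median difference was 0.65.

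**Figure D2:**
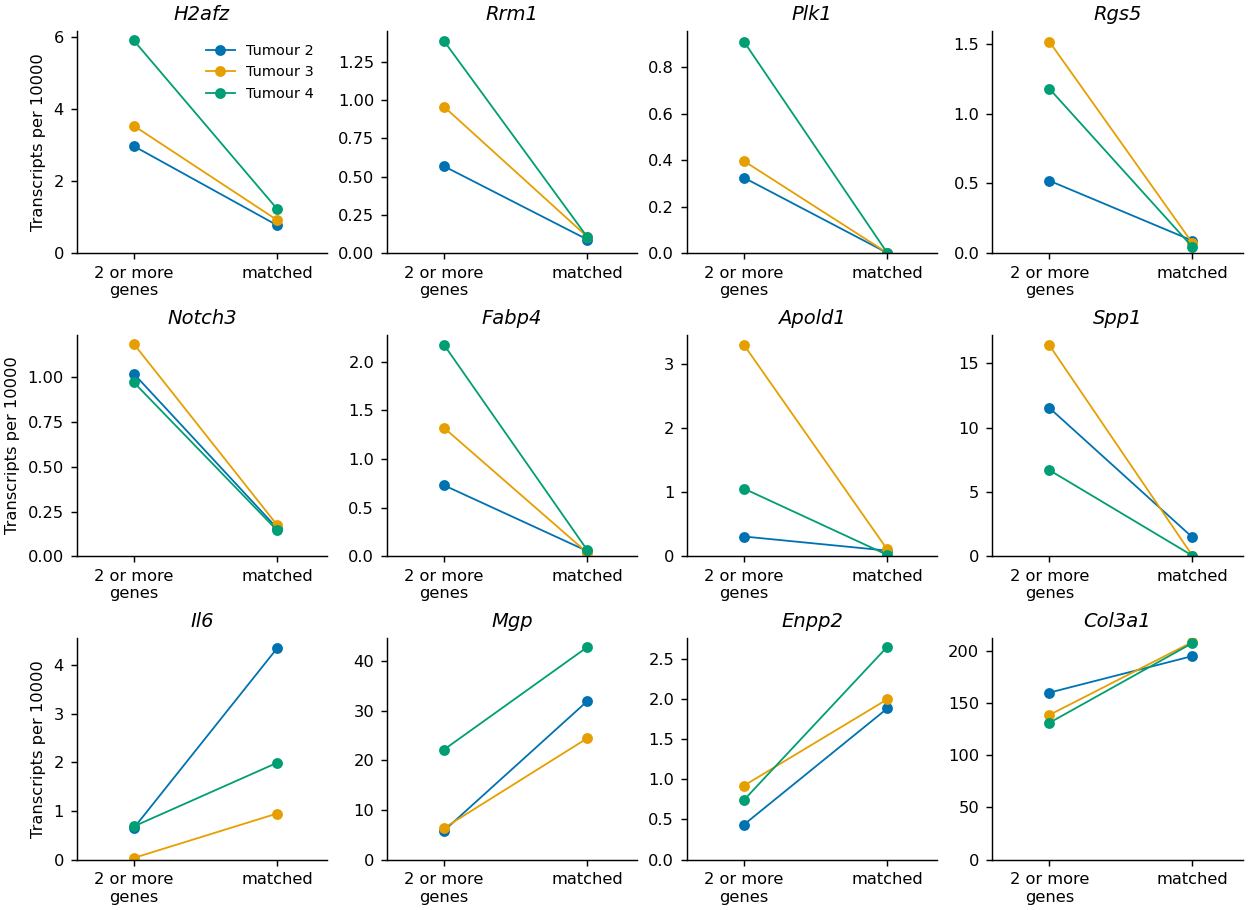
Levels of 12 genes (transcripts per 10000, linear axes from 0) in the summed wells with 2 or more proliferation genes (left in each panel) and in their depth-matched partners (right), for tumours 2, 3 and 4; lines join the sides of 1 tumour. The top 2 rows are higher and the bottom row lower in proliferation-gene wells of every tumour, and Spp1 reaches 16.4 against 0.0351 in tumour 3. In tumour 3, 1 proliferation-gene well held all transcripts of Spp1, and another held all of Rgs5, Notch3 and Fabp4.

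Most of the 10 lower genes encode secreted products of fibroblasts. Il6, the cytokine that defines inflammatory CAFs, had 0.648, 0.0330 and 0.683 in proliferation-gene wells, against 4.35, 0.948 and 1.99 in matched wells (-2.57 ± 0.39, adjusted p = 0.0205). It was found in 19 of 65 wells against 29 of 65. Mgp, an inhibitor of matrix calcification, had 5.83, 6.37 and 22.2, against 31.9, 24.4 and 42.8 (-1.90 ± 0.27, adjusted p = 0.0174). Both were lower in each tumour, with no overlap. Enpp2, the enzyme autotaxin that makes lysophosphatidic acid, had 0.437, 0.924 and 0.745, against 1.89, 2.001 and 2.66 (-1.82 ± 0.27, adjusted p = 0.0205). Frzb and Wisp2, secreted proteins that act on Wnt signals, fell by 1.83 ± 0.28 and 1.59 ± 0.27 on the log2 scale (adjusted p = 0.0211 and 0.0291). Abi3bp, a matrix-binding protein, and Ugdh, which supplies the precursor of hyaluronan, fell by 1.40 ± 0.23 and 1.21 ± 0.22 (adjusted p = 0.0279 and 0.0459). The collagen Col3a1 had 159.9, 138.5 and 130.95, against 195.0, 208.5 and 207.4 (-0.64 ± 0.10, adjusted p = 0.0279), a small difference that was alike in size in tumours 3 and 4. Prg4, the lubricant lubricin, was called lower (-1.73 ± 0.31, adjusted p = 0.0397), but its values overlapped, at 2.15, 0.0989 and 0.166 against 4.65, 0.491 and 0.768. The remaining gene called lower was the antiproliferative Tob1, at 0.130, 0.0660 and 0.124 against 0.507, 0.351 and 0.623.

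Most fibroblast programmes gave few or no calls. Of 25 inflammatory CAF genes 1 fell (Il6), with a median of -0.49 and 2 positive differences. Of 25 collagens and their processing genes 1 fell (Col3a1), and of 21 matrix-making CAF genes 1 rose (Spp1), with medians of -0.15 and -0.11. None was called among 22 progenitor-type fibroblast genes (median -0.63), 21 secreted growth factors and antagonists (-0.38) or 20 growth factor receptors (-0.43). Dcn, the proteoglycan decorin, and Gsn, gelsolin, headed the progenitor-type list with 80.4 ± 22.6 against 103.7 ± 36.1 and 16.8 ± 6.3 against 22.8 ± 6.8 (adjusted p = 0.206 and 0.328). The IGF-binding proteins Igfbp4 and Igfbp7 were at 25.5 ± 4.7 against 45.2 ± 16.1 and 30.4 ± 8.1 against 40.1 ± 14.2 (adjusted p = 0.202 and 0.294). The receptors Tgfbr2 and Axl were at 4.70 ± 1.51 against 7.25 ± 2.85 and 4.60 ± 0.45 against 5.05 ± 1.25 (adjusted p = 0.521 and 0.799).

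None of 28 actin, adhesion and contractile genes was called, although all 28 had a positive difference, with a median of 0.27. Vim, vimentin, was at 32.2 ± 3.3 against 22.5 ± 5.1 and Actb, actin, at 40.5 ± 0.7 against 31.3 ± 3.4 (adjusted p = 0.427 and 0.642). None was called among 18 genes of ribosome biogenesis and growth (median 0.25), where Eif5a was at 6.83 ± 0.80 against 5.50 ± 0.40 and Npm1 at 4.01 ± 0.75 against 2.89 ± 0.39. None was called among 21 immediate-early genes (median -0.15), 18 interferon and MHC class I genes (0.03) or 6 p53 and senescence genes (-0.50). Fos was at 19.8 ± 6.5 against 20.1 ± 6.8, B2m at 14.7 ± 1.7 against 15.4 ± 3.4 and Ccng1 at 0.537 ± 0.187 against 0.701 ± 0.238. These values are means over 3 tumours with SD, and a missed threshold does not show that they were equal.

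Splitting the pairs showed which wells carried the differences. In the 18 wells with 4 or more genes, mitosis genes summed to 38.1 per 10000, against 1.85 in their own partners; in the 47 wells with 2 or 3 genes they summed to 3.24, against 1.53. Replication genes gave 24.1 against 3.19 in the 18 pairs and 5.19 against 4.28 in the 47. Chromatin and tubulin genes gave 90.9 against 23.7, and 32.03 against 27.7. Progenitor-type fibroblast genes gave 114.3 against 247.7 in the 18 pairs and 234.6 against 251.9 in the 47. Pericyte markers gave 10.4 against 1.95, and 3.91 against 2.63. A pericyte mark, defined as 2 or more transcripts of at least 2 pericyte markers, was found in 10 of the 18 wells against 3 of their partners, and in 10 of the 47 wells against 10 of theirs. Smooth muscle marks were found in 12 of 18 against 3, and in 11 of 47 against 11; endothelial marks in 3 of 18 against 0, and in 0 of 47 against 0. The wells with 2 or 3 genes thus had the same counts of pericyte and smooth muscle marks as their partners. Some of these marks among the 18 wells lay in wells with 5 or more transcripts of the fibroblast gene Pdgfra, so a mark does not make a well mural. A tumour 4 well with a pericyte mark, for example, held 20.05 transcripts of Pdgfra, 352.7 of Dcn and none of Rgs5.

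**Figure D3:**
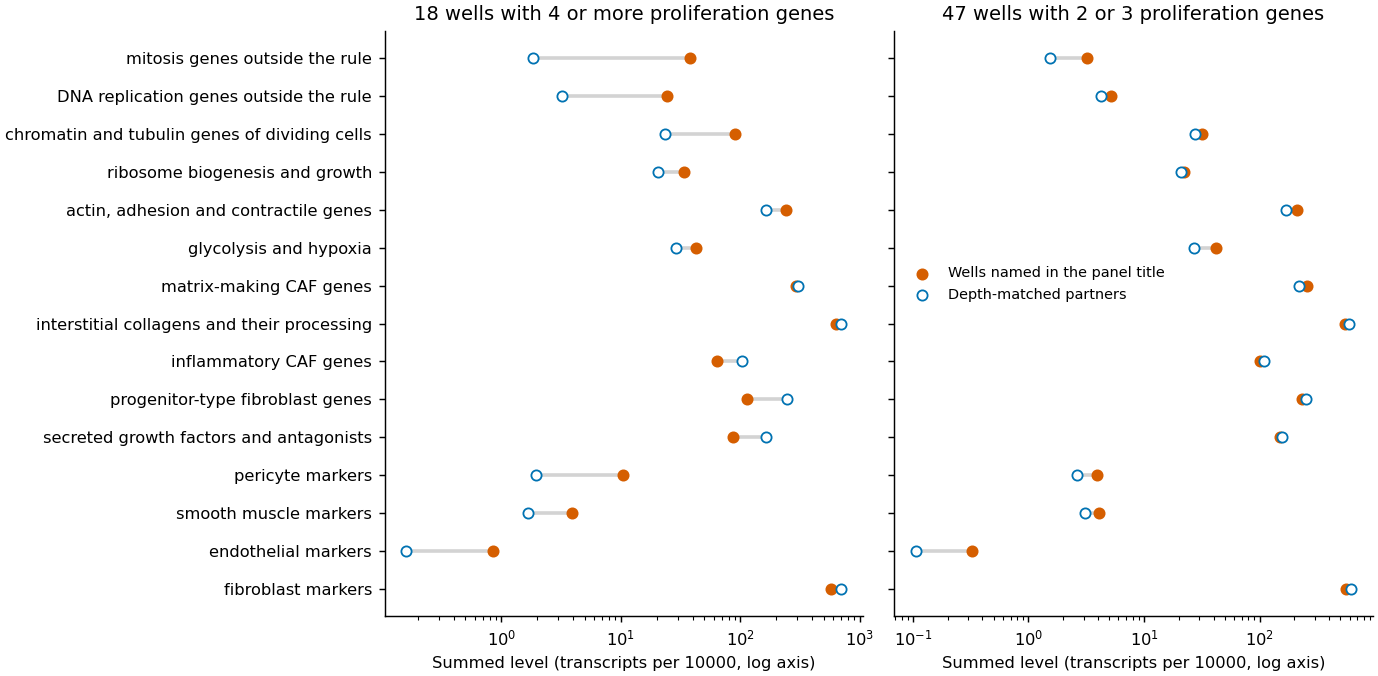
Summed level of each gene list (transcripts per 10000, log axis) in wells with 4 or more proliferation genes (left, 18 wells) and with 2 or 3 (right, 47 wells), as filled points, and in their depth-matched partners, as open points. On the left mitosis genes stand at 38.1 against 1.85 and pericyte markers at 10.4 against 1.95; on the right the points lie closer together, at 3.24 against 1.53 and 3.91 against 2.63.

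Within the 20 wells, Rgs5 and Pdgfra, the PDGF receptor by which fibroblasts are recognised, split the wells. Pdgfra reached 5 or more transcripts in 11 wells (5, 1 and 5 in tumours 2, 3 and 4), and Rgs5 reached 5 or more in 5 other wells (2, 1 and 2). No well reached both, and 4 reached neither. The cut of 5 is in transcripts and takes no account of depth, so a shallow well can miss it. A tumour 2 well with 5098 transcripts in all reached neither, yet held 15.03 of Notch3, 2 of Rgs5 and none of Pdgfra. The 5 Rgs5 wells held 3 to 36.2 transcripts of Notch3, 3 to 97.1 of Apold1 and 0 to 101.2 of Fabp4, against 0 to 3, 0 to 2 and 0 to 2 in the 11 Pdgfra wells. They held 2 to 10.01 of Dcn and none of Spp1, against 20.05 to 800.2 of Dcn and 0 to 498.0 of Spp1 in the Pdgfra wells. Both kinds held the collagen Col1a1, with 57.4 to 604.4 transcripts in the Rgs5 wells and 109.4 to 1825 in the Pdgfra wells. The Rgs5 wells held 4 to 10 of the 12 genes and the Pdgfra wells 5 to 12. Top2a was found in 2 of the 5 Rgs5 wells, with 1 and 30.1 transcripts, and in 9 of the 11 Pdgfra wells, with up to 45.2. Of the 18 paired wells, 10 reached 5 transcripts of Pdgfra and 4 reached 5 of Rgs5, against 12 and 0 of their partners. In the other 47 pairs, Rgs5 reached 5 transcripts in 2 wells against 0 partners, and Pdgfra in 24 against 36. No caller of doublets was run.

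**Figure D4:**
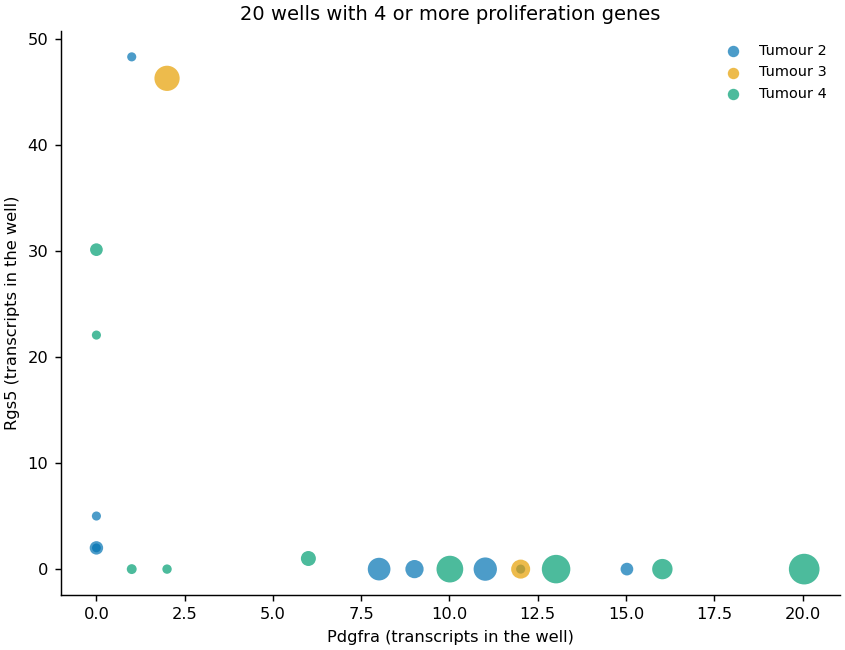
Transcripts of Pdgfra (horizontal) and Rgs5 (vertical) in each of the 20 wells with 4 or more proliferation genes; colours are tumours and the area of a point grows with the transcripts of the 12 genes. The 5 wells at 5 or more Rgs5 transcripts hold at most 2 of Pdgfra, and the 11 wells at 5 or more Pdgfra transcripts hold at most 1 of Rgs5.

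Requiring 3 of the 12 genes in place of 2 left 14 pairs in tumour 2 and 11 in tumour 4 and none of tumour 3, with 1 residual degree of freedom. Most of these proliferation-gene wells are also in the fit above, but some of tumour 2 had found no partner there. Of 4399 genes tested, 47 rose (1.07%) and 31 fell (0.705%), and 25 and 3 of these were called in the same direction in the first fit. With 2 genes, the fit without tumour 3 called 60 and 37, so the change of rule and the loss of tumour 3 cannot be told apart. None of the 28 tested actin, adhesion and contractile genes was called (median 0.48), and of 21 matrix-making CAF genes 4 rose. Acta2, smooth muscle actin, had 33.7 and 15.8 in tumours 2 and 4, against 5.37 and 3.66 in matched wells (2.19 ± 0.25, adjusted p = 0.00747). Tagln had 6.05 and 2.50, against 0.405 and 0.586 (2.84 ± 0.45, adjusted p = 0.0163). Myh11, the myosin of smooth muscle, had 1.97 and 0.326, against 0.135 and 0.0366 (3.48 ± 0.54, adjusted p = 0.0157), but in the pairs of tumour 3 under the 2-gene rule it was at 0.165 against 2.21, and over 3 tumours its difference was -0.22 (adjusted p = 0.962). Myl9, Mylk, Tpm2, Actg2, Mcam and Heyl rose too. How much single wells add to these levels was not tested. In tumour 2, 1 well that had found no partner in the first fit held 770.0 transcripts of Acta2. Of 13 tested replication genes 4 rose, among them Mcm5, Mcm7 and Pcna.

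On the lower side of that contrast stood tissue-degrading enzymes and cytokines of inflammatory CAFs. The metalloproteinase Mmp10 had 0.116 and 0.869, against 2.78 and 25.5 in matched wells (-4.94 ± 0.33, adjusted p = 2.57e-04), and the collagenase Mmp13 had 0.556 and 1.05, against 3.67 and 56.3 (-4.52 ± 0.63, adjusted p = 0.0145). Il11, a cytokine of the IL-6 family, had 0.0232 and 0.181, against 0.351 and 4.95 (-4.71 ± 0.51, adjusted p = 0.00747). Most of the matched level of these 3 genes was in tumour 4. Mgp was again lower, at 4.43 and 5.07 against 43.4 and 49.8 (-3.49 ± 0.22, adjusted p = 2.57e-04), as were Il6 (-1.77 ± 0.33, adjusted p = 0.0309) and complement C3 (-1.30 ± 0.22, adjusted p = 0.0197). Of 25 inflammatory CAF genes 3 fell, and of 22 progenitor-type fibroblast genes 5 fell. These genes and this count of genes were picked out after their values were seen.

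Other measures of the same pairs are given beside these results. Genes detected per well averaged 4012 in proliferation-gene wells and 3881 in matched wells, higher in 3 of 3 tumours by 130.6 ± 129.8 (SD; exact sign-flip permutation test, 2-sided p = 0.25, the smallest that 3 tumours allow). Mitochondrial transcripts averaged 6.15 and 6.19%. Epithelial markers were near 0, at 0.0648, 0.0989 and 0 per 10000 for 10 markers, against 0.0524, 0 and 0.0208 in matched wells, and so were myeloid and lymphocyte markers. Red cell genes summed to 11.2, 162.1 and 52.5, against 16.2, 3.97 and 2.05, and their part in the results was not tested. Fibroblast markers stood at 582.8, 544.9 and 550.5, against 622.3, 672.7 and 650.7.

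The calls depended on tumour 4: without it 0 genes rose and 0 fell by edgeR (364 at an unadjusted p under 0.05), while DESeq2 on all 3 tumours called 20 and 7. With wells that held marks of another cell type left out, 16 and 11 pairs remained in tumours 2 and 4, and 0 genes rose and 0 fell (193 at an unadjusted p under 0.05).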

How the data were processed

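The deposited values are expected counts: transcripts per gene and well that the authors corrected for UMI saturation. Undoing that correction (4096 possible tags per gene) gave integers to within 0.00486. Per the submitters' processing notes, BWA and mm10 were used; the sources used here name no version, counting program or annotation. Spike-ins were left out, and no well was removed as a doublet. Wells carry plate numbers and no barcode sequences, so shared barcodes could not be counted. The 12 genes, the members and all 17 gene lists were chosen with earlier results of these data known.

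Wells were paired 1 to 1 within a tumour by the assignment with the smallest total difference of log2 totals. A tumour entered the fit with 10 or more pairs. Sums were rounded and fitted with edgeR 4.0.16 (R 4.3.3; TMM, filterByExpr, tumour as block); DESeq2 1.42.0 was an alternative. P-values were adjusted over all tested genes except the 12, and the p-values measure the spread between these tumours. Both sides come from the same tumours, so the tumour number pairs them. The fit was tested on simulated counts with 1 fixed dispersion, and changes were set only in genes of higher counts. That test does not cover genes whose transcripts lie in few wells. Named genes were the called genes with the same direction in every tumour and at least 0.5 transcripts per 10000 on the higher side, up to 12 of largest fold outside the cell cycle lists, 6 within them and 12 lower, and up to 4 called genes, or the 2 of highest level, of each list. Of these, 1 gene is not reported here. Wells with 4 or more genes, genes of the 3-gene contrast and Tob1 were picked out after their values were seen. Intervals are exact (Clopper-Pearson, 95%), and floors allow 3 counts. Promoter windows hold 250 bases before the start and are from RefSeq.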

Additional observations from a re-analysis of the deposited data

How the results depend on the processing

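The 28 higher and 10 lower genes became 175 and 108 with no filter on low counts, 123 and 57 against all other wells without matching, 47 and 31 with at least 3 genes, and 7 and 3 when partners held none of the 12 genes. Leaving out 1 tumour at a time gave 0 (without tumour 4) to 60 (without tumour 3) higher and 0 to 37 lower. They became 0 and 0 without wells that held marks of other cell types, 18 and 9 with whole UMIs, and 37 and 25 without the deepest 5% of wells. With no replicate block 21 rose and 1 fell, so the pairing by tumour matters for the lower genes. DESeq2, RLE scaling, a mitochondrial limit of 20%, a minimum of 2000 transcripts, 5 pairs, and leaving out mitochondrial and Rn45s transcripts kept both counts within 1.5 times. An added setting, chosen after seeing the data, paired wells with no limit on the depth difference and gave 19 and 9. The cause of these changes was not tested. The share of wells became 3.36% with at least 3 genes and 2.56% after thinning. The gene fit on thinned wells could not be run, since too few wells remained. The difference in mitochondrial share, -0.04 percentage points, became 0.417 without tumour 3 (range over the tumours left out -0.266 to 0.417), 1.17 with at least 3 genes, 0.0379 with partners that held none, 0.825 without marks of other types, 1.07 with whole UMIs, 0.627 without the deepest wells, 0.493 without mitochondrial and Rn45s transcripts and -0.567 unmatched.

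Of 895 values of 49 named genes under these settings, 701 kept direction and call, 160 kept direction but lost the call, 5 gained one and 29 turned round. The last were log2 differences of Des (-0.29 with partners that held none, -0.0609 unmatched), Wisp2 (0.0102 unmatched), Eif5a (-0.0653 with partners that held none), B2m (0.15 with partners that held none, 0.0549 without mitochondrial and Rn45s transcripts), Gas1 (0.163 without tumour 3, the tumours left out giving -0.660 to 0.163, 0.0486 with at least 3 genes, 0.44 with whole UMIs) and Phlda3 (0.0196 without tumour 2, the tumours left out giving -0.433 to 0.0196, 0.59 with at least 3 genes, 0.11 with partners that held none, 0.13 unmatched, 0.18 without the deepest wells). Without marks of other types they were Btg2 (0.14), Eif5a (-0.00913), Actb (-0.10), Tgfbr2 (0.43), Dcn (0.0905), Fos (0.33) and Ifitm3 (0.24). Fosb, at 0.02, gave -0.00792 and -0.0987 without tumours 3 and 4 (range over the tumours left out -0.0987 to 0.159), -0.23 with at least 3 genes, -0.14 with partners that held none, -0.62 unmatched, -0.10 with whole UMIs, -0.0795 without mitochondrial and Rn45s transcripts and -0.0547 with no limit on depth. Depth limits the low genes: a level of 0.1 in tumour 3 rests on few counts.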
